A study of Macaca mulatta with 81 samples.

Results

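Genes of mitosis and of the kinetochore were followed in T cells of rhesus macaques that had or had not received a hematopoietic cell transplant (HCT). The set was defined by gene symbol, and its members and role lists were chosen with earlier results of these data known. It holds the mitotic cyclins, CDK1 and its regulators, the Aurora kinases with their partners, kinetochore and centromere proteins, kinesins, condensin subunits, TOP2A, MKI67 and ANLN, and it came to 76 of the 14133 genes that the array's gene table names with 1 gene per probe set. Of these, 72 were tested, because they lay above the 40th percentile of all values, a log2 signal of 4.65, in at least 2 arrays. The other 4, KIF24, KIF27, NEK2 and SPC24, were at or under that level in every array and carry no test. Because symbols set the membership, 23 members (21 tested) are kinesins not on the list of mitotic kinesins used here. Most are known mainly for transport in interphase cells, for cilia or for other roles outside the spindle. KIF2A, a relative of the mitotic kinesin KIF2C, is also among the 23. These 23 are called the other kinesins and are given apart from the remaining 53 members (51 tested).

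The samples were CD3 T cells from blood, measured on 81 Affymetrix arrays from 50 animals, which the labels number, so replicates are separate animals. Transplanted animals gave 47 arrays from 27 animals. The groups of HCT recipients were allogeneic without prophylaxis (NoRx.F, 4 arrays), allogeneic with Siro (Siro.F, 4), with Tac-Mtx (Tac.Mtx at D14, 3, D30, 2, and F, 3), with Bela (Bela.F, 3), with Bela-Siro (Bela.Siro at D14, 3, D30, 3, and F, 2), with FR104 (FR104 at D14, 3, and F, 3), with FR104-Siro (FR104.Siro at D14, 4, and F, 4), and autologous without prophylaxis (Auto.D14, 3, and Auto.D36, 3). Healthy.Control, 34 arrays, came from animals labelled as healthy, and 11 animals contributed to both the healthy and the transplanted samples. The labels do not spell the agents out: they are read here as sirolimus, which blocks mTOR, as tacrolimus, a calcineurin inhibitor, given with methotrexate, which blocks folate use, as belatacept, which occupies the ligands of CD28, and as FR104, which binds CD28. F marks arrays labelled as final, with no day given, and the 4 FR104.Siro.D14 arrays were taken on days 14, 34, 14 and 22 (animals 26, 27, 28 and 29). A Bela.Siro.D30 array was taken on day 29.

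A cell enters mitosis when CDK1, bound to cyclin B, is switched on by CDC25 phosphatases. The centromere is marked by CENPA, a histone H3 variant, on which a standing network of CENP proteins sits. In mitosis the outer kinetochore is built onto that network and binds spindle microtubules, Aurora kinases correct faulty attachments, and the checkpoint protein MAD2L1 holds back securin (PTTG1) destruction until all chromosomes are attached. Condensin and TOP2A shape the chromosomes, kinesins move them, and anillin (ANLN) helps close the cleavage furrow. Resting blood T cells rarely divide, whereas T cells that have met antigen divide repeatedly, so transcripts of these genes are widely used to follow proliferation.

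All levels are deposited log2 signals, and every fold change, standard error (SE) and adjusted p is from 1 limma fit over the 81 arrays with terms for group and batch (Benjamini-Hochberg adjustment over the 11807 genes tested, call at an adjusted p under 0.05). Control transcripts added to the samples (spike-ins) were brighter in 8 transplant arrays than the healthy maximum of 11.53, and the 3' minus 5' signal of actin, a measure of 3' bias of the RNA, is given where it lay apart from healthy controls. Few arrays per group were available, which limits the precision. In bulk samples a lower or higher level of a transcript cannot be told apart from fewer or more cells that carry it. Of the T cell genes, picked after the values were seen, TCF7, ZAP70, CD8A, TRAT1, CD5, LAT and CD8B had medians over all arrays above those of 92.3% to 99.1% of genes, and CD6, CD28 and CD4 above those of 55.4%, 45.1% and 44.8%. Of the listed T cell markers CD5 alone was measured (lower in 3 of 15 groups). At least 1 of 8 monocyte and myeloid markers, with S100A9 in front, was above healthy controls in 12 of the 15 groups. In NoRx.F and Bela.F 3 of the 8 were higher, and the mean of the list per array was 6.57 to 8.65 in NoRx.F and 7.97 to 8.52 in Bela.F, against 4.90 to 7.58 in healthy controls. In Bela.Siro.D14 and Bela.Siro.D30 3 were higher too and in Bela.Siro.F 2, and the medians of that list mean over the arrays were 8.18, 8.35 and 8.05 in that order, against 5.95 in healthy controls. Of 5 B and plasma cell markers 2 were higher in NoRx.F, Siro.F and Bela.F, with MZB1 in front, 1 was higher in FR104.F, FR104.Siro.D14 and FR104.Siro.F, and 2 were lower in the FR104, FR104.Siro and Auto groups at both times. Of 5 erythroid markers 3 were higher in Tac.Mtx.D14 and 1 in Tac.Mtx.F. Of 4 NK cell markers 1 was higher in Bela.F, and 1 was lower in NoRx.F, FR104.F, FR104.Siro.D14 and FR104.Siro.F, and none of 4 platelet markers passed in any of the 15 groups. The part of these cells in the results below was not tested.

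T cells of allogeneic recipients without prophylaxis carried more of most mitotic transcripts than those of healthy animals. In NoRx.F 46 of the 72 tested members rose and 3 fell, where 20% of all genes tested were called higher and 15.4% lower. The median difference over the members was 0.81 on the log2 scale, against 0.05 over all genes tested. Outside the other kinesins 43 of 51 rose and 1 fell, with a median of 1.37. For 34 members, 33 of them outside the other kinesins, every NoRx.F array lay above every healthy array, which was so for 7.39% of all genes tested. A healthy median at or under 4.65 was found for 12 tested members, which could pass the filter through the transplant arrays, and 8 of these rose. With a healthy median above that level, 41 members were called in NoRx.F. The same 12 are among the tested members in the counts of all other groups below. Leaving out any 1 NoRx.F array gave between 47 and 50 members called. The 34 healthy control arrays are shared by all comparisons with them, so these are not independent of each other.

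**Figure D1:**
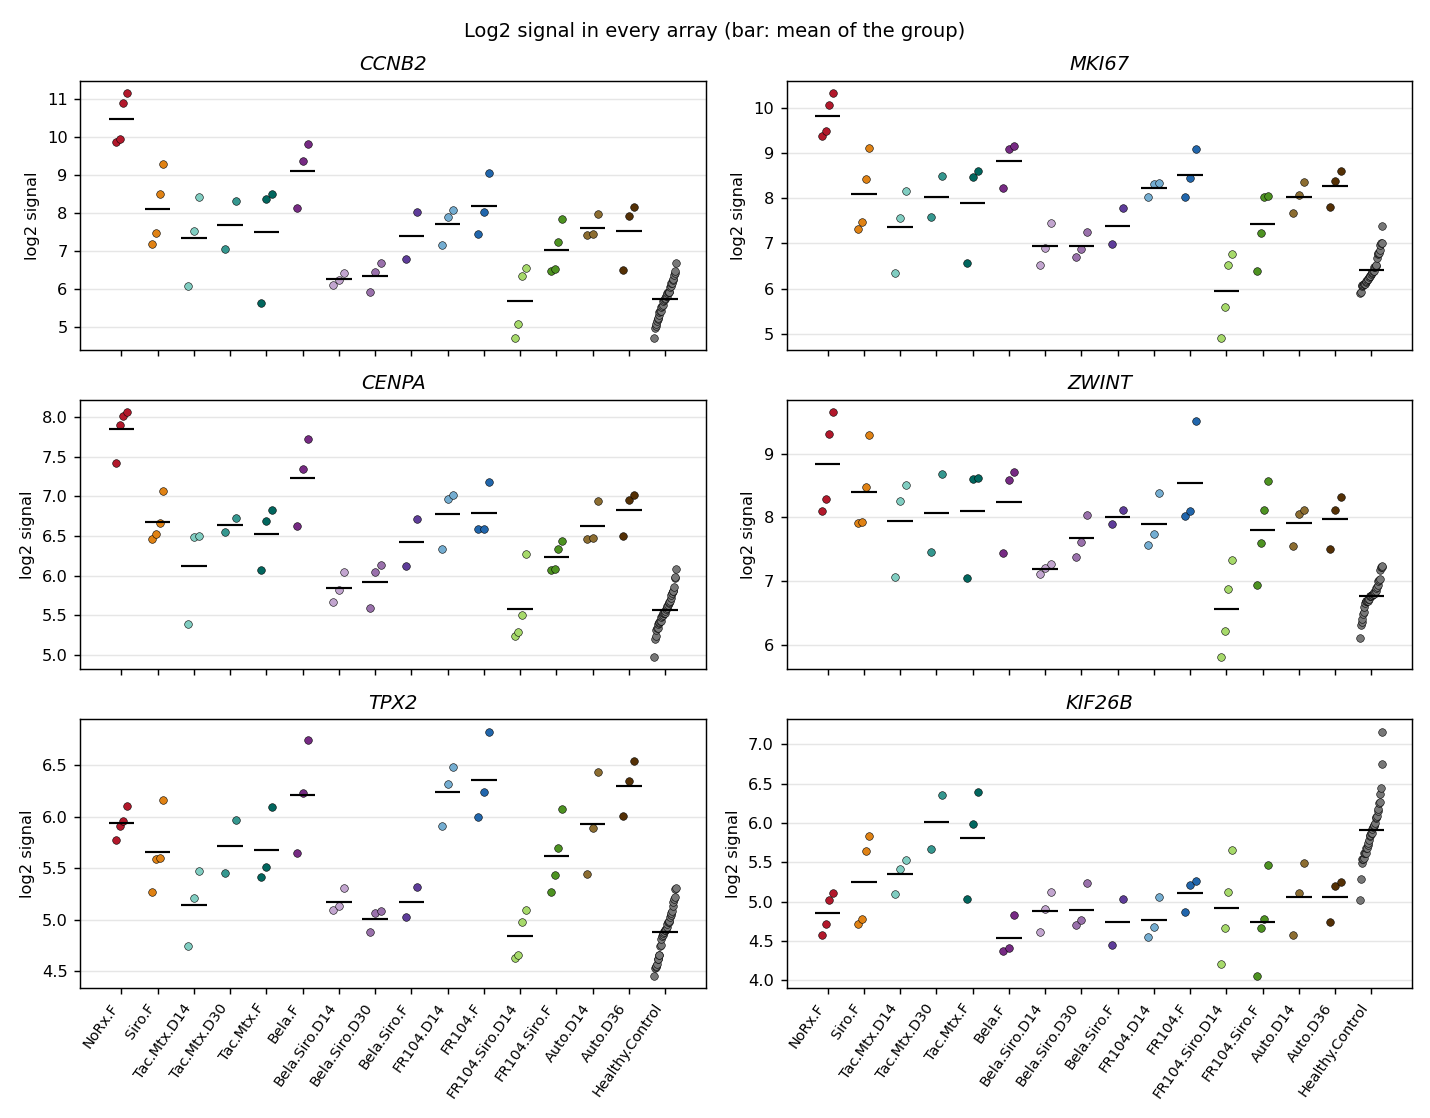
Deposited log2 signal (vertical axis) of CCNB2, MKI67, CENPA, ZWINT, TPX2 and KIF26B in each array, by group, with 1 point per array. For CCNB2 all 4 NoRx.F arrays lie between 9.86 and 11.15, above the healthy maximum of 6.69, while for KIF26B most transplant arrays lie in or below the lower part of the healthy range.

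The cyclins and the regulators of CDK1 held the largest single difference. CCNB2, a B-type cyclin that activates CDK1, read 11.15, 9.86, 10.89 and 9.95 in the NoRx.F arrays of animals 50, 51, 52 and 53, against 4.71, 5.75 and 6.69 in healthy controls, where 3 values are, throughout, the lowest, median and highest array. The groups did not overlap, and CCNB2 was 27.2-fold higher in NoRx.F (log2 difference 4.77 ± 0.40, adjusted p 3.77e-15). CDKN3, a phosphatase that acts on CDKs, read 10.26, 8.79, 9.76 and 8.61 in NoRx.F, against 5.12, 5.91 and 6.38 in healthy controls. It too was separate in all arrays and rose by 3.50 ± 0.31, adjusted p 2.06e-14. The other B-type cyclin CCNB1, at 9.92, 8.42, 9.24 and 8.54 in NoRx.F, against 6.13, 6.55 and 7.42 in healthy controls, rose by 2.46 ± 0.25. CDK1 itself, the kinase of mitotic entry, read 8.15, 6.92, 8.48 and 7.29 in NoRx.F, against 4.79, 5.56 and 6.62 in healthy controls, and rose by 2.10 ± 0.31. The small CDK-binding proteins CKS2 (2.46 ± 0.32) and CKS1B (0.79 ± 0.16), the S and G2 phase cyclin CCNA2 (1.61) and the CDK-activating phosphatases CDC25A (0.82 ± 0.13) and CDC25C (0.79 ± 0.17) rose as well, CDC25C with a healthy median at or under 4.65. In all, 9 of the 11 members of this class rose, and CDC25B and CCNF, the substrate adaptor of a ubiquitin ligase, did not pass.

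All 5 tested kinases, checkpoint proteins and securin rose. AURKA, the Aurora kinase of centrosomes and spindle poles, read 7.76, 7.27, 8.0 and 7.78 in NoRx.F, against 6.0, 6.30 and 6.72 in healthy controls. No array of one group entered the range of the other, and the difference was 1.37 ± 0.20, adjusted p 1.08e-07. TPX2, which binds and activates AURKA on the spindle, read 5.91, 5.78, 5.96 and 6.10 in NoRx.F and 4.45, 4.90 and 5.31 in healthy controls, again without overlap (1.06 ± 0.17). AURKB, the Aurora kinase of the chromosomal passenger complex, read 8.59, 8.23, 8.68 and 8.11 in NoRx.F and 6.95, 7.58 and 8.36 in healthy controls. Here the groups overlapped, and the rise was the smallest of the class at 0.74 ± 0.25, adjusted p 0.0141. MAD2L1, which delays anaphase at unattached kinetochores, rose by 1.88 ± 0.26, and PTTG1, the securin that restrains separase, by 1.05 ± 0.33. PTTG1 was abundant in every group, at 13.04, 12.03, 12.42 and 11.82 in NoRx.F and 10.34, 11.32 and 12.10 in healthy controls.

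Of the outer kinetochore the 5 tested members all rose, with a median difference of 2.08, and SPC24 was not tested. NUF2, a subunit of the NDC80 complex that grips microtubule ends, read 7.62, 6.52, 7.41 and 7.12 in NoRx.F, against 3.93, 4.67 and 5.07 in healthy controls, and was 5.91-fold higher (2.56 ± 0.29, adjusted p 4.34e-11). Its partner SPC25 rose by 1.83 ± 0.34, with a healthy median at or under 4.65. CENPF, a large protein that reaches the kinetochore in G2, read 10.53, 10.16, 10.75 and 9.73 in NoRx.F, against 7.26, 7.79 and 8.89 in healthy controls, and ZWINT, which links the checkpoint to the kinetochore, read 9.32, 8.29, 9.65 and 8.11 against 6.10, 6.77 and 7.24. All NoRx.F arrays of both genes lay above all healthy arrays, with differences of 2.44 ± 0.22 for CENPF and 2.08 ± 0.29 for ZWINT. CENPE, the kinetochore kinesin that carries chromosomes to the spindle equator, rose less, by 0.83 ± 0.15.

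Among the centromere proteins 11 of 16 rose and none fell, and the median was 0.73. The histone CENPA read 8.06, 7.42, 7.90 and 8.02 in NoRx.F and 4.97, 5.54 and 6.08 in healthy controls, separate in every array, with a difference of 2.29 ± 0.18, adjusted p 4.8e-16. Members of the constitutive centromere network ranged widely: CENPU (2.82 ± 0.30), CENPW (2.81 ± 0.27), CENPM (2.19 ± 0.27), CENPN (1.97 ± 0.21) and CENPH (1.68 ± 0.28) were the largest, and CENPI (0.83 ± 0.15), CENPO (0.83 ± 0.16), CENPX (0.58 ± 0.12) and CENPL (0.37 ± 0.12) were smaller. The healthy medians of CENPH, CENPI, CENPL and CENPT were at or under 4.65. CENPN, which recognises the CENPA nucleosome, read 8.78, 8.10, 8.76 and 8.33 in NoRx.F, against 5.97, 6.55 and 7.06 in healthy controls. CENPV also passed, at 0.64 ± 0.17. The 5 that did not pass were CENPC and CENPT, which connect the inner network to the outer kinetochore, CENPK, CENPB, which binds alpha satellite DNA, and CENPJ, a centriole protein that shares the prefix. CENPC read 6.88, 6.53, 7.05 and 6.91 in NoRx.F and 6.52, 6.98 and 7.98 in healthy controls, within one range.

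All 8 genes of chromosome structure and cytokinesis rose, with a median of 1.69. TOP2A, which untangles sister chromatids, read 10.52, 9.46, 10.84 and 9.02 in NoRx.F, against 5.10, 6.33 and 7.51 in healthy controls, a 12.7-fold difference (3.67 ± 0.44, adjusted p 2.97e-10). MKI67, the coat protein of mitotic chromosomes used as a proliferation marker, read 10.32, 9.38, 10.06 and 9.49 in NoRx.F and 5.90, 6.34 and 7.38 in healthy controls (3.41 ± 0.31, adjusted p 5.67e-14). For both genes every NoRx.F array was above every healthy array. The condensin I subunit NCAPG rose by 2.89 ± 0.32 and the ATPases common to both condensins SMC2 (1.85 ± 0.24) and SMC4 (0.78 ± 0.15), while the condensin II subunits NCAPG2 (1.10 ± 0.15) and NCAPH2 (0.38 ± 0.12) moved less. ANLN rose by 1.53 ± 0.28, also with a healthy median at or under 4.65.

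Of the 6 spindle and midzone motors 5 rose: KIF2C, which shortens microtubules at centromeres, by 2.51 ± 0.31, KIF4A, a chromosome-bound motor of the midzone, by 2.26 ± 0.27, KIF23, of the centralspindlin complex, by 1.79 ± 0.30, KIF18A, which damps chromosome movement, by 1.14 ± 0.23, and KIF22, a chromosome-arm motor, by 0.94 ± 0.16. The healthy medians of KIF23 and KIF18A were at or under 4.65. KIF2C read 8.30, 7.40, 8.56 and 7.95 in NoRx.F and 5.15, 5.55 and 6.08 in healthy controls, without overlap. KIF20B, a motor of late cytokinesis, fell (-0.57 ± 0.17, adjusted p 0.00491), but 3 other probe sets for it gave 0.03, 0.31 and 0.30. Of the 21 other kinesins 3 rose and 2 fell, with a median of 0.15, and 16 did not pass. KIF9, known from cilia and flagella, read 7.95, 7.54, 7.73 and 7.54 in NoRx.F, against 5.77, 6.51 and 6.96 in healthy controls, and rose by 1.22 ± 0.16. KIF1B, a transporter of mitochondria and vesicles, rose by 0.80 ± 0.19 and KIF3C by 0.57 ± 0.14. KIF26B, a divergent kinesin studied in mouse kidney development, read 5.11, 4.58, 5.02 and 4.72 in NoRx.F and 5.03, 5.88 and 7.16 in healthy controls, and fell (-1.05 ± 0.25, adjusted p 0.000447), with 1 of the 4 arrays inside the healthy range. KIF2A, a relative of KIF2C, fell by 0.51 on the log2 scale on the probe set used, and another of its probe sets differed by 0.45 in the opposite direction.

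Probe sets of 1 gene did not always give 1 answer. Of 33 members with several tested probe sets, all sets gave 1 call in NoRx.F for 20, some but not all passed for 11, and calls were opposite for 2, KIF2A and PTTG1, where the PTTG1 set used gave 1.05 and another -1.26. CCNF had a value of -0.41 on the set used and 1.03 on another, adjusted p 2.02e-05. The 11 members of which some but not all sets passed were AURKA, AURKB, CCNF, CENPL, CENPN, KIF1B, KIF9, KIF20B, KIF22, NCAPH2 and SMC4. The values given above for these are of the set used. For MKI67, TOP2A, CCNB1, CDK1, CDKN3, CENPF, KIF2C and MAD2L1 all tested probe sets gave the same call.

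Of 54 further mitotic genes chosen as a companion list with earlier results known, 33 were named on the array and 30 tested. In NoRx.F 22 of these rose and 1 fell, with a median of 1.13. OIP5, which helps load CENPA, rose by 2.87, MELK, a kinase of dividing cells, by 2.32, FOXM1, the transcription factor of G2 and M phase genes, by 1.95, and CDCA8, a partner of AURKB, by 1.47. HJURP, the chaperone of CENPA, rose by 1.17. The exception was PBK, a mitotic kinase, which fell by 1.22 on the log2 scale.

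**Figure D2:**
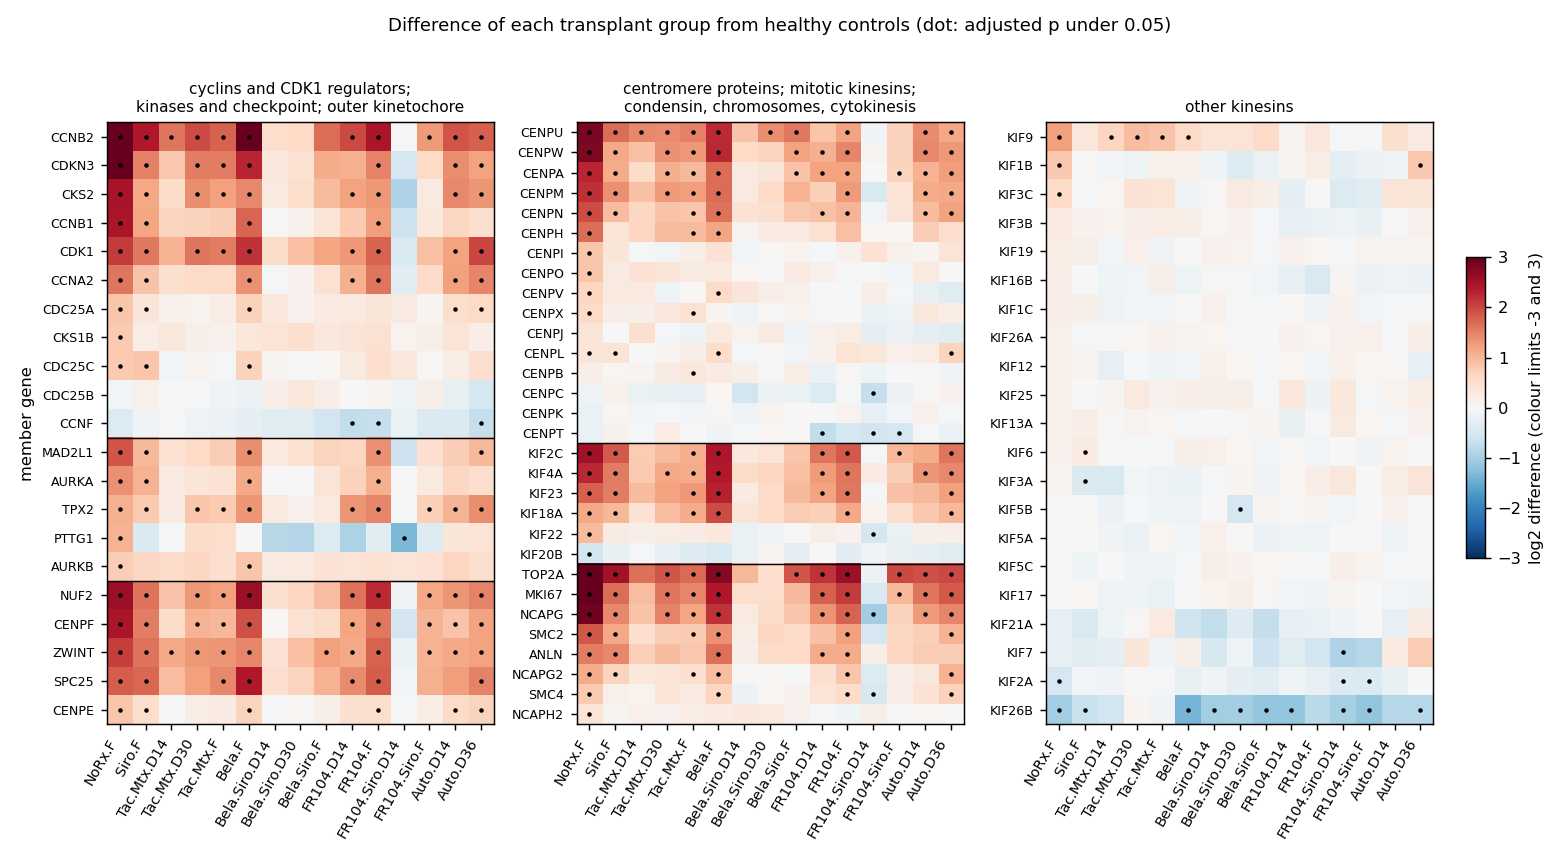
Log2 difference from healthy controls of each tested member (rows, by role) in each of the 15 transplant groups (columns), from the limma fit, with colour limits at -3 and 3 and a dot at an adjusted p under 0.05. Most rows outside the other kinesins are higher in NoRx.F, Bela.F, Siro.F and FR104.F, and the other kinesins show little in most groups. FR104.Siro.D14 has none called higher and 9 members called lower, a share close to that of all genes.

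Mitotic genes were also above healthy controls at the final time in recipients of Bela, Siro, FR104 or Tac-Mtx. In Bela.F 37 members rose and 1 fell, against 12.4% of all genes called higher and 5.25% lower, with a member median of 0.55 (0.03 over all genes). In Siro.F 33 rose and 2 fell (8.26% and 6.34% of all genes), with a median of 0.31. In FR104.F 30 rose and 1 fell (5.39% and 5.28%), with a median of 0.36, and in Tac.Mtx.F 27 rose and none fell (10.7% and 3.41%), with a median of 0.29. Of the tested outer kinetochore members 5 of 5 rose in Bela.F, Siro.F and FR104.F, and 4 of 5 in Tac.Mtx.F. The 5 include SPC25, whose healthy median of 3.20 lies under the level of the filter. Every array of the group lay above every healthy array for 29 members in Bela.F, 18 in Siro.F, 27 in FR104.F and 3 in Tac.Mtx.F, where 3.96%, 1.62%, 3.4% and 3.46% of all genes did so in that order of groups.

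Single arrays carried much of some of these counts. Without animal 18 the count in Siro.F was 22 members, and with batch 1 alone, which holds 2 Siro.F arrays, it was 6, against 38 with batch 2 alone. Without animal 22 the count in FR104.F was 7, and its actin signal was 0.09 to 0.43, against 0.43 to 3.83 in healthy controls. Without animal 20 the count in Tac.Mtx.F was 3, and without animal 21 it was 9. Animal 18 was the highest of the 4 Siro.F arrays in 41 of the 51 members outside the other kinesins, animal 22 the highest of the 3 FR104.F arrays in 45, and animal 19 the lowest of the 3 Tac.Mtx.F arrays in 44. In Bela.F the count stayed between 32 and 40 without any 1 array.

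CCNB2 was separate from healthy controls in all but 1 of these arrays. It read 9.36, 9.82 and 8.14 in the Bela.F arrays of animals 46, 47 and 57, 9.06, 7.45 and 8.03 in the FR104.F arrays of animals 22, 23 and 24, 8.49, 7.48, 7.18 and 9.28 in the Siro.F arrays of animals 13, 16, 17 and 18, and 5.64, 8.37 and 8.49 in the Tac.Mtx.F arrays of animals 19, 20 and 21, against 4.71 to 6.69 in healthy controls. All arrays of the first 3 groups lay above the healthy range, and the Tac.Mtx.F array of animal 19 lay inside it. The rises were 3.37 ± 0.44 in Bela.F, 2.45 ± 0.48 in FR104.F, 2.40 ± 0.39 in Siro.F and 1.76 ± 0.44 in Tac.Mtx.F, with adjusted p at most 0.00402. Ranked by difference within a group, CCNB2 led in Bela.F and Tac.Mtx.F, and TOP2A led in FR104.F (2.58 ± 0.52) and Siro.F (2.52 ± 0.42). AURKA rose in Bela.F (1.14 ± 0.22), FR104.F (1.06 ± 0.24) and Siro.F (1.04 ± 0.20), while its value in Tac.Mtx.F was 0.44 ± 0.22, adjusted p 0.181. AURKB rose in Bela.F (0.83 ± 0.27) and passed in none of the other groups but NoRx.F.

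In recipients of both Siro and a CD28 agent a few members rose. In Bela.Siro.F 5 members rose and 1 fell (1.87% and 0.966% of all genes), and in FR104.Siro.F 9 rose and 3 fell (2.91% and 7.15%). The member medians were 0.18 in Bela.Siro.F and 0.13 in FR104.Siro.F. The 5 in Bela.Siro.F were TOP2A (1.88 ± 0.56), CENPU (1.58 ± 0.39), ZWINT (1.24 ± 0.37), CENPW (1.21 ± 0.35) and CENPA (0.85 ± 0.23), and leaving out either of its 2 arrays left none called. Within batch 3 alone 1 member was called in Bela.Siro.F, and without the array of high spike-in signal 1. In FR104.Siro.F TOP2A (1.97 ± 0.48), CCNB2 (1.29 ± 0.44), NUF2 (1.15 ± 0.31) and ZWINT (1.04 ± 0.31) led, CENPF (1.01 ± 0.24), MKI67 (1.0 ± 0.34), KIF2C (0.99 ± 0.34), TPX2 (0.72 ± 0.19) and CENPA (0.66 ± 0.20) also rose, and KIF26B (-1.17 ± 0.27), CENPT (-0.53 ± 0.18) and KIF2A (-0.44 ± 0.13) fell. Without animal 27 the count there was 7, and the actin 3' minus 5' signal as a covariate left 7. ZWINT read 8.58, 8.12, 7.60 and 6.94 in the FR104.Siro.F arrays of animals 26 to 29 and 8.12 and 7.90 in the Bela.Siro.F arrays of animals 38 and 42, against 6.10, 6.77 and 7.24 in healthy controls. The FR104.Siro.F array of animal 29 alone lay in the healthy range.

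The arrays of day 14 and day 30 were compared with healthy controls in the same way. FR104.D14 had 19 members higher and 3 lower (2.58% and 2.8% of all genes), Tac.Mtx.D14 had 4 higher and none lower (1.4% and 0.0678%), and Tac.Mtx.D30 had 17 higher and none lower (2.85% and 0.61%). Bela.Siro.D14 had none higher and 1 lower (1.99% and 0.525%), and Bela.Siro.D30 had 1 higher and 2 lower (4.23% and 2.95%). Single arrays moved these counts. Without animal 22 the count in FR104.D14 was 4 and without animal 23 it was 7, and without the array of high spike-in signal it was 7. Without animal 19 the count in Tac.Mtx.D14 was 17, and without animal 20 or 21 it was 0. Without either array of Tac.Mtx.D30 none was called, and with batch 3 alone 7 were called there and 1 in Tac.Mtx.D14.

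In FR104.D14 the largest rises were TOP2A (2.16 ± 0.52), CCNB2 (1.98 ± 0.48), MKI67 (1.80 ± 0.37) and NUF2 (1.62 ± 0.34), with KIF26B (-1.15 ± 0.30), CENPT (-0.73 ± 0.20) and CCNF (-0.73 ± 0.23) lower, although the mean of the CCNF probe sets gave 0.053. FR104.D14 arrays also had an actin 3' minus 5' signal of 0.02 to 0.37, below the healthy range of 0.43 to 3.83, and with that signal as a covariate 11 members were called. The 4 in Tac.Mtx.D14 were CCNB2 (1.60 ± 0.44), CENPU (1.43 ± 0.33), ZWINT (1.17 ± 0.31) and KIF9 (0.65 ± 0.17). In Bela.Siro.D14 the one call was KIF26B (-1.04 ± 0.27), lost without animal 42 or within batch 3 alone. In Bela.Siro.D30 CENPU (1.41 ± 0.33) rose, and KIF26B (-1.02 ± 0.27) and KIF5B (-0.54 ± 0.12) fell. KIF5B, the ubiquitous heavy chain of kinesin-1, read 11.55, 11.11 and 10.22 in the Bela.Siro.D30 arrays of animals 38, 42 and 49, against 11.23, 11.50 and 11.77 in healthy controls, so the last array stood far below the other 2. Without animal 38 the count in Bela.Siro.D30 was 5, and without animal 42 or 49 it was 1.

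In FR104.Siro.D14 no member rose and 9 of the 72 fell, against 8.52% of all genes called higher and 9.68% lower, and the member median was -0.09 (-0.02 over all genes). The share of members called lower was thus close to that of all genes, and the falls do not set this gene set apart. PTTG1 read 9.65, 10.13, 9.80 and 10.22 in the arrays of animals 26, 27, 28 and 29, against 10.34, 11.32 and 12.10 in healthy controls, below all of them, and fell (-1.35 ± 0.36, adjusted p 0.00705). Probe sets of PTTG1 gave opposite calls in NoRx.F, and the values here are of the set used alone. CENPC read 6.24, 6.14, 6.46 and 6.41, against 6.52, 6.98 and 7.98, also below all healthy arrays (-0.70 ± 0.18). For these 2 members no array of the group reached the healthy range, which was so for 1.61% of all genes. The others were NCAPG (-1.05 ± 0.35), KIF26B (-1.0 ± 0.27), KIF7 (-0.92 ± 0.32), CENPT (-0.57 ± 0.18), KIF22 (-0.51 ± 0.17), SMC4 (-0.49 ± 0.16) and KIF2A (-0.41 ± 0.13). Spike-in controls were brighter in all 4 of these arrays, 11.70 to 12.53, than in any healthy array, up to 11.53, and the actin 3' minus 5' signal of 3 of them, animals 27, 28 and 29, was 0.23 to 0.27, below the healthy minimum of 0.43. The actin signal was tried as a covariate among the alternatives. Leaving out arrays of high spike-in signal would leave none in this group. Whether either signal caused the falls was not tested. Without animal 29 the count was 5, and with the 2 arrays of day 14 alone it was 1.

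Autologous recipients, who carry no foreign graft, also had mitotic genes above healthy controls. In Auto.D14 20 members rose and none fell (2.47% and 1.92% of all genes, 4.4% together), and in Auto.D36 30 rose and 2 fell (7.83% and 8.89%). The member medians were 0.35 in Auto.D14 and 0.48 in Auto.D36. MKI67 read 8.06, 7.66 and 8.36 in the Auto.D14 arrays of animals 200, 201 and 202 and 8.59, 8.37 and 7.81 in their Auto.D36 arrays, against 5.90, 6.34 and 7.38 in healthy controls. No Auto array entered the healthy range, and MKI67 rose by 1.61 ± 0.37 in Auto.D14 and 1.84 ± 0.37 in Auto.D36. TOP2A (1.93 ± 0.52) led in Auto.D14 and CDK1 (2.0 ± 0.37) in Auto.D36, where CCNF (-0.68 ± 0.23, or 0.025 as the mean of its probe sets) and KIF26B (-0.85 ± 0.30) were the 2 that fell. AURKA was 0.61 ± 0.24 (adjusted p 0.137) in Auto.D14 and 0.50 ± 0.24 (adjusted p 0.157) in Auto.D36. Every array of the group lay above every healthy array for 19 members in Auto.D14 and 21 in Auto.D36 (1.73% and 4.56% of all genes). Without animal 202, whose day 14 array has a high spike-in signal, no member was called in Auto.D14, and without animal 201 13 were. In Auto.D36 18 were called without animal 200 and 19 without animal 201. The actin 3' minus 5' signal of Auto.D36, -0.34 to -0.30, lay below the healthy range, and with it as a covariate 21 were called.

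Over the 15 transplant groups, 48 members were called higher in at least 1, 13 were called lower in at least 1, and 15, of which 12 are other kinesins, were called in none, where 37.1%, 30.4% and 36.4% of all genes tested were. ZWINT rose in 12 groups, CCNB2, CENPA, CENPU and TOP2A in 11, and CENPF, CENPW, MKI67, NUF2 and TPX2 in 10. AURKA and CCNB1 rose in 4 and AURKB in 2. KIF26B fell in 10 groups and rose in none. The mean of the group was highest in NoRx.F for 32 of the 51 members outside the other kinesins, and in Bela.F for 8. For these counts of groups per gene and of highest means no share over all genes is given. They therefore do not set the members apart from other genes.

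**Figure D3:**
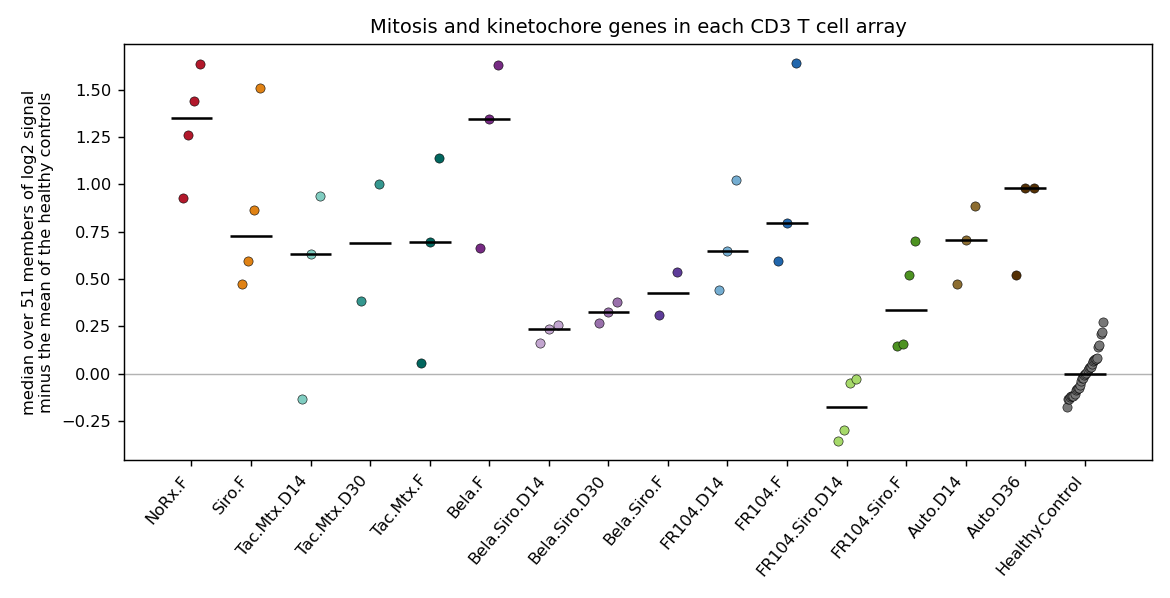
Median over the 51 tested members outside the other kinesins of their log2 signal minus the mean of the healthy controls (vertical axis), 1 point per array, by group. NoRx.F arrays reach 1.64 and Bela.F arrays 1.63, healthy arrays lie between -0.17 and 0.28, and FR104.Siro.D14 arrays lie between -0.36 and -0.03.

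The median of these 51 members in each array, after the mean of the healthy controls was subtracted, places the animals side by side. Its lowest, median and highest values were 0.93, 1.35 and 1.64 in NoRx.F, 0.66, 1.34 and 1.63 in Bela.F, 0.59, 0.80 and 1.64 in FR104.F, 0.47, 0.73 and 1.51 in Siro.F, and 0.06, 0.70 and 1.14 in Tac.Mtx.F, against a range of -0.17 to 0.28 in healthy controls. Only the Tac.Mtx.F array of animal 19 among these final arrays lay in the healthy range. The 2 Bela.Siro.F arrays were at 0.31 and 0.54 and the FR104.Siro.F arrays ranged from 0.15 to 0.70. Auto.D14 ranged from 0.47 to 0.89 and Auto.D36 from 0.52 to 0.98. The ranges of NoRx.F, Bela.F, FR104.F and Siro.F overlap.

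Against recipients without prophylaxis, the final groups were compared directly. These 6 comparisons share the 4 NoRx.F arrays, and the groups other than Siro.F were in other batches than NoRx.F, so that the batch term rests on the healthy arrays. FR104.Siro.F had 34 members lower and none higher (13.1% and 6.56% of all genes), with a median of -0.72 (-0.08 over all genes). Siro.F had 23 lower and 1 higher (6.67% and 5.39%), Bela.Siro.F 18 lower (3.53%, with none of the members among the 4.22% higher), Tac.Mtx.F 17 lower (2.24%, none among the 4.7% higher) and FR104.F 10 lower (4.12%, none among the 3.54% higher). The member medians were -0.37, -0.62, -0.52 and -0.32 in that order. In Bela.F no member passed in either direction in limma (0.195% and 1.67% of all genes lower and higher), and the median was -0.19. At an unadjusted p under 0.05 in that fit 12 members were lower and 1 higher, where 4.95% and 8.44% of all genes were. Leaving out Bela.F animal 46 or NoRx.F animal 53 gave 1 member called after adjustment.

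CCNB2 and CENPA are given for each comparison, and both lay further below 0 than the member median in all 6. For CCNB2 the differences from NoRx.F were -3.48 ± 0.60 in FR104.Siro.F, -3.10 ± 0.66 in Bela.Siro.F, -3.0 ± 0.59 in Tac.Mtx.F, -2.36 ± 0.49 in Siro.F and -2.32 ± 0.63 in FR104.F. CENPA differed by -1.64 ± 0.27, -1.44 ± 0.30, -1.33 ± 0.27, -1.17 ± 0.22 and -1.08 ± 0.29 in the same order. In Bela.F, where neither passed, CCNB2 differed by -1.40 ± 0.59 and CENPA by -0.62 ± 0.27. MKI67 read 8.04, 8.04, 7.23 and 6.40 in FR104.Siro.F, against 10.32, 9.38, 10.06 and 9.49 in NoRx.F, without overlap, a difference of -2.41 ± 0.46, adjusted p 9.92e-05. AURKA read 6.72, 6.74, 6.38 and 6.74 in FR104.Siro.F, against 7.76, 7.27, 8.0 and 7.78 in NoRx.F, and fell there (-1.07 ± 0.30) and in Tac.Mtx.F (-0.92 ± 0.30). TPX2 and ZWINT passed in none of the 6: in FR104.Siro.F TPX2 was at 6.07, 5.70, 5.44 and 5.27 and in NoRx.F at 5.91, 5.78, 5.96 and 6.10. The one member higher was KIF2A in Siro.F (0.44 ± 0.14), at -0.048 as the mean of its probe sets.

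**Figure D4:**
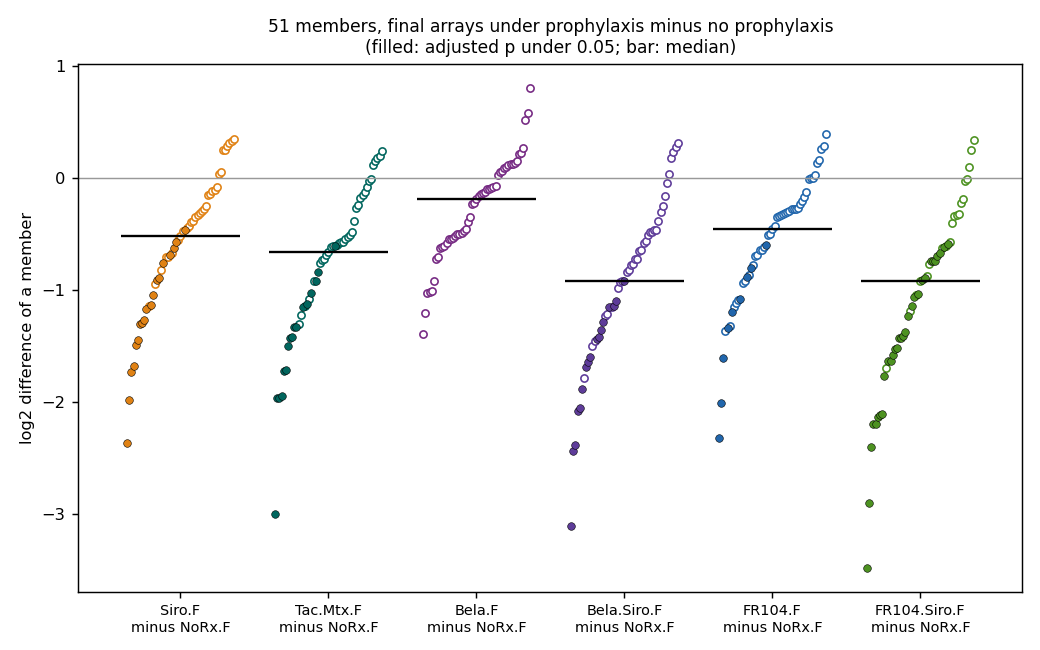
Log2 difference from NoRx.F (vertical axis) of each of the 51 tested members outside the other kinesins in the 6 final groups with prophylaxis, from the limma fit, with filled points at an adjusted p under 0.05 and a bar at the median. Every filled point lies below 0, and Bela.F has none.

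By role, FR104.Siro.F had 7 of 11 cyclins and CDK1 regulators, 3 of 5 kinases and checkpoint proteins, 3 of 5 outer kinetochore, 10 of 16 centromere, 3 of 6 spindle kinesin, 5 of 8 chromosome structure and 3 of 21 other kinesin members lower than in NoRx.F, and 11 of the 30 companion genes. In Siro.F the cyclin class was again the fullest, 7 of 11. All arrays of the group lay below all NoRx.F arrays for 33 members in FR104.Siro.F, 10 in Siro.F, 39 in Bela.Siro.F, 22 in Tac.Mtx.F, 12 in FR104.F and 8 in Bela.F, which was so for 15.7%, 7.48%, 18.4%, 9.81%, 17.4% and 4.91% of all genes.

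Several of these counts moved with 1 array. In FR104.Siro.F the count stayed between 28 and 39. In Siro.F the count was 12 without NoRx.F animal 50, 13 without NoRx.F animal 52, 12 without Siro.F animal 16 and 15 without Siro.F animal 17, and 35 with batch 1 alone. In Tac.Mtx.F it was 4 without Tac.Mtx.F animal 19, 8 without NoRx.F animal 50 and 9 without NoRx.F animal 52. In Bela.Siro.F it was 2 without Bela.Siro.F animal 42 and 11 without NoRx.F animal 52. In FR104.F it was 0 without FR104.F animal 23, 3 without FR104.F animal 24, 4 without NoRx.F animal 50 and 5 without NoRx.F animal 52.

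Allogeneic and autologous recipients, both without prophylaxis, were set against each other at Auto.D14 only. Auto.D36, whose arrays had a higher median level over the 51 members (0.98 against 0.71 in Auto.D14), was not compared with NoRx.F. In NoRx.F 6 members were higher than in Auto.D14 and none lower (1.9% and 1.43% of all genes), with a median of 0.39 (0.04 over all genes). They were CCNB2 (2.88 ± 0.63), CDKN3 (2.12 ± 0.49), CCNB1 (1.83 ± 0.40), MKI67 (1.80 ± 0.49), CENPF (1.59 ± 0.34) and CENPA (1.24 ± 0.29). CCNB1 read 9.92, 8.42, 9.24 and 8.54 in NoRx.F, against 6.91, 7.40 and 7.34 in Auto.D14, and CENPF 10.53, 10.16, 10.75 and 9.73 against 9.09, 8.31 and 8.72, in both cases without overlap. For 27 members every NoRx.F array lay above every Auto.D14 array, and so it did for 10.1% of all genes. With animals as blocks 17 members were called, without NoRx.F animal 51 15, and without NoRx.F animal 53 16. The days of the NoRx.F arrays are not given, and the groups were in different batches.

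Adding Siro to an agent was compared at the final time. In FR104.Siro.F against FR104.F no member passed in limma (0% of all genes lower, 0.00847% higher), and the median was -0.34 over all members. At an unadjusted p under 0.05 in that fit 24 members were lower and none higher, where 4.93% and 2.49% of all genes were. In Bela.Siro.F against Bela.F 2 members fell, CENPF (-1.35 ± 0.34, adjusted p 0.0468) and TPX2 (-1.04 ± 0.26, adjusted p 0.0476), where 0.271% of all genes fell and 0.186% rose. CENPF read 8.29 and 8.58 in Bela.Siro.F and 9.90, 10.21 and 9.24 in Bela.F, and TPX2 5.32 and 5.02 against 6.23, 6.74 and 5.65, without overlap for either. The animal block gave 4 calls. Without Bela.F animal 57 there were 9, and without Bela.F animal 46 or 47 or either Bela.Siro.F array none.

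**Figure D5:**
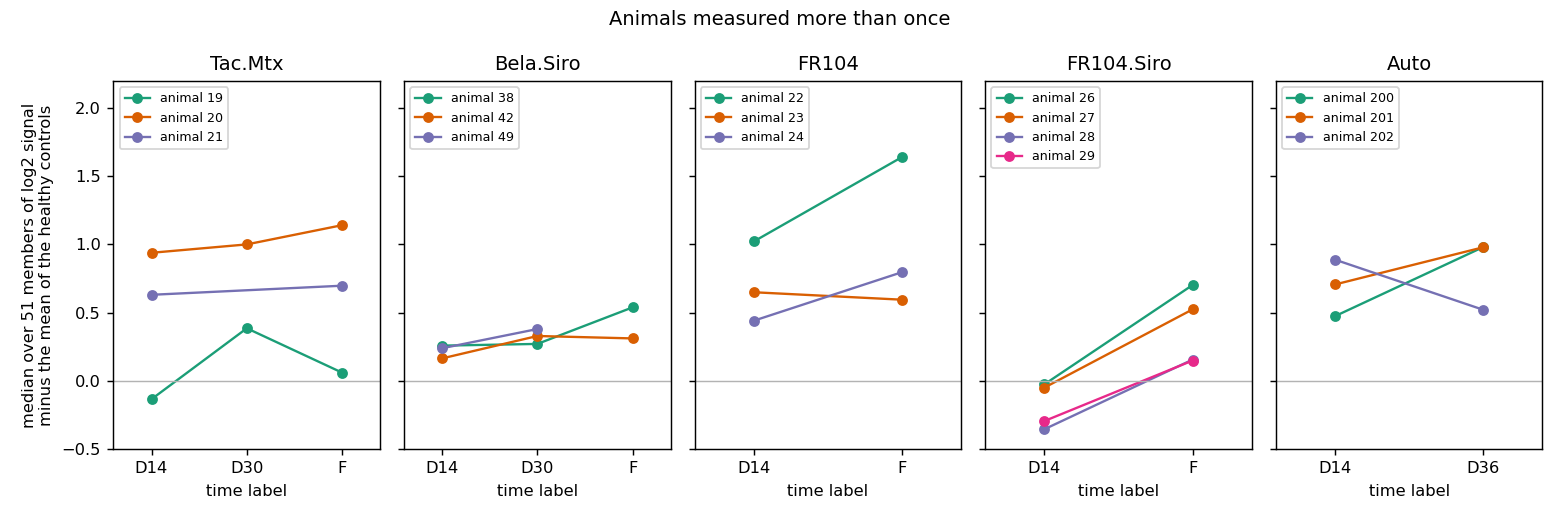
Median over the 51 members of log2 signal minus the healthy mean (vertical axis) in each array of the animals measured more than once, by time label, with a line per animal. All 4 FR104.Siro animals lie higher in the final array, while Auto animals 200 and 201 lie higher and animal 202 lower at D36.

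Time was followed in animals measured more than once. The main fit did not pair the arrays of an animal, so its calls compare groups, and counts with the animal as a block are given beside them where they differed. In FR104.Siro.F against FR104.Siro.D14 13 members rose and none fell (1.68% and 1.42% of all genes), and 21 when each animal was a block. They were led by TOP2A (2.14 ± 0.52), NCAPG (1.74 ± 0.38), CENPF (1.58 ± 0.26) and MKI67 (1.47 ± 0.37) and held 6 of the 8 chromosome structure genes and 3 of the 5 outer kinetochore genes. TOP2A read 9.18, 8.82, 7.96 and 7.15 in the final arrays of animals 26, 27, 28 and 29, and 7.36, 6.66, 6.05 and 4.47 in their earlier arrays, so it was higher in 4 of 4 animals. Over the 51 members the later array was higher for 41 in animal 26, 43 in animal 27, 43 in animal 28 and 34 in animal 29. For 10 members all final arrays lay above all earlier ones (2.65% of all genes). Spike-in signal was above the healthy maximum in all 4 earlier arrays (11.70 to 12.53) and in 1 of the 4 final ones (11.09 to 12.13). It was lower in the final array of animals 26, 27 and 28 and higher in that of animal 29. The actin 3' minus 5' signal was below the healthy minimum in 2 of the 4 final arrays and in 3 of the 4 earlier ones. The actin signal was tried as a covariate among the alternatives. Leaving out arrays of high spike-in signal would remove all 4 earlier arrays. Whether either signal caused the rises was not tested. The count was 1 without the earlier array of animal 29, 1 without the final array of animal 26 or 27, and 1 with the earlier arrays of day 14 alone.

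In the other 3 time comparisons fitted no member passed in limma. In Auto.D36 against Auto.D14 there were none of 72 (0.855% of all genes higher and 0.119% lower), 4 at an unadjusted p under 0.05 (11.3% of all genes), and 2 with the animal as a block. The 3 animals differed: the later array was higher for 48 of 51 members in animal 200, 30 in animal 201 and 6 in animal 202. FR104.F against FR104.D14 had none (0% of all genes in either direction) and 2 unadjusted (2.89% of all genes), with 47, 22 and 40 of 51 members higher in animals 22, 23 and 24. Tac.Mtx.F against Tac.Mtx.D14 had none (0% of all genes in either direction) and 2 unadjusted (4.37% of all genes), with 33, 38 and 42 of 51 higher in animals 19, 20 and 21. The times of Bela.Siro and the D30 arrays of Tac.Mtx were compared within animals only, with no test. Bela.Siro.D30 was higher than Bela.Siro.D14 for 29, 40 and 33 of 51 members in animals 38, 42 and 49, and Bela.Siro.F for 42 and 35 in animals 38 and 42. Whether such effects differ between groups was tested as contrasts of the fit, and no member passed in any of 5. The change over time of FR104.Siro against that of FR104, Auto and Tac.Mtx had 7, 13 and 6 members at an unadjusted p under 0.05, where 2.67%, 10.7% and 8.61% of all genes were. That of FR104 against Tac.Mtx had 1 (1.85% of all genes), and the effect of added Siro to Bela against that to FR104 had 1 (3.29%).

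Some animals had a healthy array of their own. Against it, NoRx.F animal 53 was higher for 43 of 51 members with a median of 1.49, Bela.F animal 47 for 46 with 1.55, FR104.F animal 22 for 41 with 1.59, and Siro.F animals 13, 16 and 18 for 46, 42 and 47 with 0.83, 0.62 and 1.61. Auto.D14 was higher for 40, 48 and 45 members in animals 200, 201 and 202. Bela.Siro animal 49 was higher for 30 at D14, with a median of 0.07, and for 32 at D30, with 0.11. FR104.Siro.D14 animal 28 was higher for 6, with a median of -0.39, and its final array for 32, with 0.15. The healthy arrays of animals 16 and 28 were in another batch than their transplant arrays. No test was run on these pairs.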

How the data were processed

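RNA of CD3 T cells from 81 blood samples was measured on 1-colour Affymetrix arrays of 52865 probe sets. The deposited values are log2 signals that the authors made with RMA and affy, per the submitters' processing notes, with no version given. They ran from 1.52 to 16.67, with array medians of 5.12 to 5.31, and no 2 arrays were identical (highest correlation 0.994). Among healthy controls differences between the 4 labelled batches were smaller than chance allows: the p of an F test lay above 0.95 in 61% of probe sets and in 47.2% of the members tested, and chance puts 5% there. The values may have been adjusted for batch before deposit, which was not tested, and no method for this is given in the sources used here. SE may be too small.

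Probe sets with 1 gene in the platform table (24969) were kept, those with several (361) left out, and the probe set with the highest mean taken per gene. Genes above the 40th percentile in at least 2 arrays were fitted with limma 3.58.1 and statmod 1.5.0 in R 4.3.3 (lmFit on group and batch, 62 residual degrees of freedom, eBayes with a trend) in 28 comparisons, after a test on simulated data. Members, role lists, the companion list and marker lists were chosen with earlier results of these data known. Named genes are 26 fixed members, plus up to 3 of smallest p per comparison. Other members are named where a count of a role is given, and were chosen after their values were seen.

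Arrays of 1 animal carry its number in the labels. After group means were removed, their correlation was 0.205 to 0.575 in comparisons over time and -0.195 to 0.337 against the own healthy array, and the animal was tried as a random block. Other alternatives were no batch term, no filter, the mean of probe sets, renewed quantile normalization, the compared groups alone, each batch alone and each array left out. Leaving out arrays of high spike-in signal, a covariate of actin 3' minus 5' signal and the day 14 arrays alone were chosen after seeing the data. No sequences were used here.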

Additional observations from a re-analysis of the deposited data

Results flagged for a closer look

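In groups of 4 arrays, 104 sets of values (26 named members in 4 groups) were searched for an array far from the other 3, and 3 were found, where chance gives about 1 in 20. AURKA in FR104.Siro.F animal 28 read 6.38 where the others lay at 6.72 to 6.74. KIF4A in FR104.Siro.D14 animal 28 read 4.38 where the others lay at 5.31 to 5.48. NCAPG in Siro.F animal 18 read 8.48 where the others lay at 7.06 to 7.23.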

How the results depend on the processing

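Counts of called members depended most on the batch term and on single arrays. Against healthy controls, the fit without batch called 8 members in Tac.Mtx.D14, 2 in Bela.Siro.D14, 6 in Bela.Siro.D30, 10 in Bela.Siro.F, 22 in FR104.Siro.D14 (6 higher, 16 lower), 23 in FR104.Siro.F and 32 in Auto.D14. Against NoRx.F it called 30 in Tac.Mtx.F, 3 in Bela.F, 31 in Bela.Siro.F and 22 in FR104.F, and it called 23 in NoRx.F against Auto.D14, 4 in Bela.Siro.F against Bela.F and 1 in Auto.D36 against Auto.D14. Batch 1 alone gave 6 in Siro.F, and batch 3 alone 1 in Tac.Mtx.D14, 7 in Tac.Mtx.D30, 0 in Bela.Siro.D14 and 1 in Bela.Siro.F. Renewed quantile normalization gave 6 in Bela.Siro.D30, 12 in NoRx.F against Auto.D14 and 1 in Bela.Siro.F against Bela.F, where no filter gave 0. With the replicate block, the animal as a random block (correlation 0.194), the counts were 17 in NoRx.F against Auto.D14, 4 in Bela.Siro.F against Bela.F, 2 in Auto.D36 against Auto.D14 and 21 in FR104.Siro.F against FR104.Siro.D14, and no other count moved by over 1.5 times. Leaving out arrays of high spike-in signal gave 1 in Bela.Siro.F, 7 in FR104.D14 and 0 in Auto.D14 against healthy controls and 0 in Bela.Siro.F against Bela.F. The actin covariate gave 11 in FR104.D14, 7 in FR104.Siro.F, 21 in Auto.D36 and 1 in Bela.Siro.F against Bela.F. The 2 day 14 arrays of FR104.Siro.D14 alone gave 1 against healthy controls and 1 in FR104.Siro.F against FR104.Siro.D14. The cause was not tested for any of these.

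With 1 array left out, the counts against healthy controls ranged from 47 to 50 in NoRx.F, 22 to 36 in Siro.F, 0 to 17 in Tac.Mtx.D14, 0 to 0 in Tac.Mtx.D30, 3 to 30 in Tac.Mtx.F, 32 to 40 in Bela.F, 0 to 1 in Bela.Siro.D14, 1 to 5 in Bela.Siro.D30, 0 to 0 in Bela.Siro.F, 4 to 21 in FR104.D14, 7 to 31 in FR104.F, 5 to 12 in FR104.Siro.D14, 7 to 13 in FR104.Siro.F, 0 to 18 in Auto.D14 and 18 to 32 in Auto.D36. Against NoRx.F they ranged from 12 to 30 in Siro.F, 4 to 21 in Tac.Mtx.F, 0 to 1 in Bela.F, 2 to 22 in Bela.Siro.F, 0 to 15 in FR104.F and 28 to 39 in FR104.Siro.F. They ranged from 5 to 16 in NoRx.F against Auto.D14, 0 to 9 in Bela.Siro.F against Bela.F, 0 to 2 in Auto.D36 against Auto.D14 and 1 to 18 in FR104.Siro.F against FR104.Siro.D14, and were 0 in the other 3. Where 1 array remained in a group, it took the spread of the other groups.

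Of 317 differences of named members under 3658 alternatives in all, 3126 kept direction and call, 524 lost the threshold, 3 gained it and 5 reversed. With the mean of probe sets KIF20B in NoRx.F was 0.017, CCNF in FR104.D14 0.053 and in Auto.D36 0.025 against healthy controls, and KIF2A in Siro.F against NoRx.F -0.048, and with batch 1 alone KIF26B in Siro.F was 0.040. For members near the level of 4.65 the signal over background limits what these arrays can show.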
